A study of Mus musculus with 3 samples.

Results

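Myosin light chains are small proteins of the EF-hand family that wrap around the neck of the myosin heavy chain. Each heavy chain carries 1 essential light chain, which stiffens the neck, and 1 regulatory light chain, which can be phosphorylated by a myosin light chain kinase. In the heart Myl2 and Myl7 are the ventricular and atrial regulatory chains, and Myl3 and Myl4 are the ventricular and atrial essential chains. Atrial chains are also made in the early ventricle and become restricted to the atria later. Myl9 and Myl6 are the regulatory and essential chains of smooth muscle and non-muscle myosin, Myl1 is the essential chain of fast skeletal muscle, Mylk is the smooth muscle and non-muscle kinase, and Mylk3 is the cardiac kinase.

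These 9 genes were followed across 3 stages of mouse heart on Illumina expression bead arrays. All probes that carry 1 of these symbols as their gene name, ignoring case, were taken, which gave 11 probes of 46632 on the array. They stand for 8 of the 9 genes, since Mylk has 3 probes, Myl9 has 2, Myl1, Myl2, Myl3, Myl4, Myl6 and Myl7 have 1 each, and no probe carries the name Mylk3. Of the 11 probes, 10 were detected in at least 1 array and 9 in all 3, where detected means a detection p under 0.01.

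What the study called isolated cardiomyocytes came from embryonic day 11 to 12, neonatal day 3 to 4 and adults of 10 weeks or older. All 3 samples carried the strain label eGFP α-MHC on DBA, α-MHC being the heavy chain encoded by Myh6, and the tissue label heart. Each sample pooled the RNA of several hearts, and each stage had 1 array. The design text speaks of dissociated cells prepared for FACS without a gate that decided which cells were kept. With 1 array per stage there is no replicate check and no test: a probe was called higher or lower where 2 arrays differed by at least 1 on the log2 scale (2-fold) and the probe was detected in at least 1 of them. The ± values are standard errors from the spread between beads of a probe. They cover bead noise only, not animals, cell preparations or hybridisations.

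The arrays were alike in detection, with 30.2% to 32.9% of probes detected, a median of 37 beads per probe and median raw signals of 57.3 to 77.6. The 16 cardiomyocyte markers examined were all detected in the embryonic and neonatal arrays, but 11 of 16 were detected in the array labelled adult. There Myh6, Ttn, Mybpc3, Ldb3 and Myom1 were not detected, although Myh6 names the reporter strain. The summed normalised level of the cardiomyocyte markers was 17.77 (embryonic), 16.72 (neonatal) and 12.46 (adult) on the log2 scale. Of 10 fibroblast markers 3, 9 and 9 were detected in the same order, with summed levels of 9.73, 16.31 and 16.42. Of 9 macrophage markers 3, 9 and 9 were detected, and of 12 smooth muscle and pericyte markers 7, 11 and 10 were. Of 8 erythroid markers 8, 4 and 3 were detected, and of the macrophage markers 5 were higher and 0 lower in adult than in neonatal. The array labelled adult therefore goes against its cardiomyocyte label in part, and every adult value below is a value of that array. The neonatal array also carried fibroblast and macrophage markers, and the embryonic array erythroid ones, with a summed level of 15.78. None of the 3 arrays can thus be read as RNA of cardiomyocytes alone. In RNA from pooled cells, fewer cells of a type and less RNA per cell cannot be told apart.

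The light chain genes differed in their patterns over the stages. The sarcomeric chains Myl2, Myl3, Myl4 and Myl7 were bright in the embryonic and neonatal arrays and 15.5-fold to 17.7-fold lower in the adult array than in the neonatal one. Both Myl9 probes were lower at each later stage, and the Myl6 probe differed by less than 2-fold in each comparison. The 3 Mylk probes went the other way, with folds of 17.8 and 29.7 and a bound of at least 12.6-fold for neonatal over embryonic, and their normalised adult signals were within 2-fold of the neonatal ones. Myl1 was not detected in any array.

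**Figure D1:**
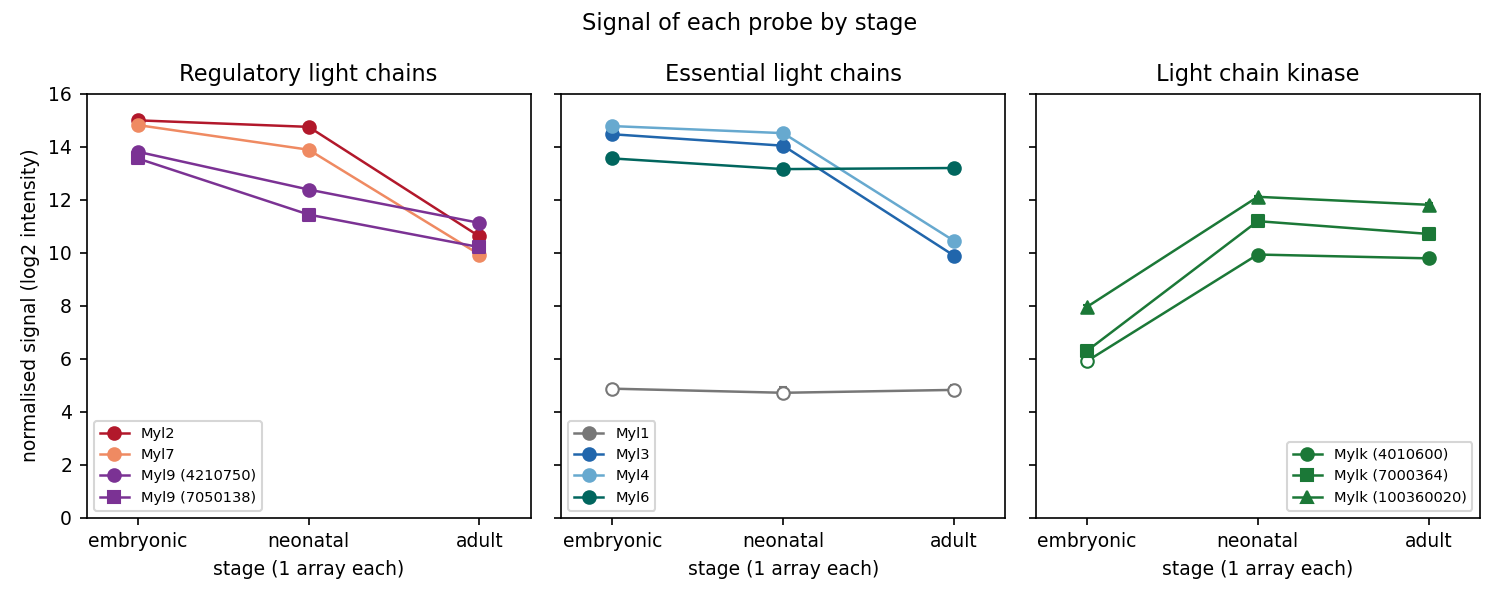
Normalised signal of the 11 probes in the embryonic, neonatal and adult arrays (log2 scale on the vertical axis), 1 line per probe, with error bars (mostly hidden by the symbols) for the bead standard error and open circles where a probe was not detected. The lines of Myl2, Myl3, Myl4 and Myl7 drop between the neonatal and the adult array, the 3 Mylk lines climb between the embryonic and the neonatal array, and only steps along 1 line can be read, since probes differ in brightness for the same amount of RNA.

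Among the regulatory chains, the Myl2 probe gave raw signals of 35253.8, 28923.8 and 937.8 in the embryonic, neonatal and adult arrays, or 14.99, 14.74 and 10.61 as normalised log2 signals. It was detected in all 3, and 6 probes were brighter on the embryonic array. The Myl2 signal differed by -0.25 ± 0.07 (log2) between neonatal and embryonic, which was not called, and was 17.5-fold lower in adult than in neonatal (log2 difference -4.13 ± 0.07). Against the embryonic array the adult signal was 20.8-fold lower (-4.38 ± 0.08).

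The Myl7 probe, for the atrial regulatory chain, gave raw signals of 31107.6, 17972.8 and 605.9 in the embryonic, neonatal and adult arrays, or 14.81, 13.88 and 9.93 as log2 signals. The neonatal array was the middle of the 3, and the embryonic to neonatal difference of -0.93 ± 0.06 stayed just under 2-fold. With the authors' processed values in place of the normalisation used here, that difference was -1.53 and would be called. Adult was 15.5-fold lower than neonatal (-3.95 ± 0.09) and 29.5-fold lower than embryonic (-4.88 ± 0.09). Set against Myl2, Myl7 had a more negative step from embryonic to neonatal, with a log2 difference in change of -0.68 ± 0.09, and a step from neonatal to adult that was less negative by 0.18 ± 0.11. Neither gap reached 2-fold, although the first was -1.06 with the authors' processed values.

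Myl9, the regulatory chain of smooth muscle and non-muscle cells, was read by a pair of probes. Probe 4210750 gave raw signals of 17160.6, 7096.1 and 1286.5 in the embryonic, neonatal and adult arrays, and probe 7050138 gave 13830.2, 3764.2 and 720.8. Both put the embryonic array highest and the adult array lowest. Probe 4210750 was 2.69-fold lower in neonatal than in embryonic (-1.43 ± 0.11) and 2.39-fold lower in adult than in neonatal (-1.26 ± 0.12). Probe 7050138 was 4.33-fold lower in the first step (-2.12 ± 0.08) and 2.34-fold lower in the second (-1.23 ± 0.10). The probes thus differed from each other by 0.69 ± 0.14 in the first step and by 0.03 ± 0.16 in the second. From embryonic to adult they were 6.42-fold and 10.1-fold lower (-2.68 ± 0.12 and -3.34 ± 0.10).

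The Myl9 pattern differed from that of Myl2 by more than 2-fold in both steps. Probe 4210750 had a more negative first step than Myl2 (difference in change -1.18 ± 0.13) and a second step less negative by 2.88 ± 0.14. With each array centred on its median the first of these gaps was -0.99, just under 2-fold. The smooth muscle and pericyte markers moved differently from Myl9: of 11 measured, 7 were higher and 0 lower in neonatal than in embryonic, with a median difference of 2.73.

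The promoters of Myl7 and Myl9 are shown because each holds a CArG box, the site that serum response factor binds, within the RefSeq window of 300 bases around the annotated start (build GRCm38.p6). The capitals mark the box, searched as CC, then 6 letters that are A or T, then GG, which reads the same on both strands. The Myl7 window is chr11:5898733-5899032 on the minus strand with the box at position -61 from the start, and the Myl9 window is chr2:156775214-156775513 on the plus strand with the box at -161.
Myl7: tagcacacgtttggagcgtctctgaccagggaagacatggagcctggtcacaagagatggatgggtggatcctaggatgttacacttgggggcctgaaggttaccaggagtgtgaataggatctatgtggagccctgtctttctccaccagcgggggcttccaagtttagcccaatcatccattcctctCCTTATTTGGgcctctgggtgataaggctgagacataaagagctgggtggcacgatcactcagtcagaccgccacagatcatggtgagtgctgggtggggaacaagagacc
Myl9: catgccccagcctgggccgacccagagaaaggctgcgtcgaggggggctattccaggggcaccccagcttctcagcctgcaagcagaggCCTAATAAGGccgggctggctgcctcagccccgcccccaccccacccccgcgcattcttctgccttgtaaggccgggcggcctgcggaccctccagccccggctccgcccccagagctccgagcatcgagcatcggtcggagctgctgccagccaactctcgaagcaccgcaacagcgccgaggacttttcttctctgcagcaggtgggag

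Among the essential chains, the Myl3 probe gave raw signals of 25858.6, 19666.9 and 590.7 in the embryonic, neonatal and adult arrays, or 14.46, 14.03 and 9.89 as log2 signals. The embryonic and neonatal values lay within 2-fold (-0.43 ± 0.08), and adult was 17.7-fold lower than neonatal (-4.15 ± 0.07) and 23.9-fold lower than embryonic (-4.58 ± 0.07). The Myl4 probe, for the atrial and early ventricular essential chain, gave raw signals of 30425.3, 25179.3 and 839.5. Its step from embryonic to neonatal was -0.27 ± 0.07, not called, and adult was 16.7-fold lower than neonatal (-4.06 ± 0.08) and 20.1-fold lower than embryonic (-4.33 ± 0.08).

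The probes named Myl4 and Myl3 thus had near-equal steps. A further, dim probe of Myl4, named MYLA and described below, was at least 2.23-fold lower in neonatal than in embryonic. The change of Myl4 less that of Myl3 was 0.17 ± 0.10 from embryonic to neonatal, 0.08 ± 0.11 from neonatal to adult and 0.25 ± 0.11 from embryonic to adult, none of which reached 2-fold. With a single array per stage, these gaps do not show that the chains behaved alike in the animals.

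Myl6, the essential chain of smooth muscle and non-muscle myosin, gave raw signals of 13875.4, 11648.4 and 5509.2 in the embryonic, neonatal and adult arrays, or 13.55, 13.15 and 13.19 as log2 signals. None of its differences was called: -0.40 ± 0.13 for neonatal less embryonic, 0.04 ± 0.10 for adult less neonatal and -0.36 ± 0.14 for adult less embryonic. Centring each array on its median, which also shifts the median of all measured probes, turned the middle one to -0.73 and made the last -1.14, past 2-fold. With the median of all measured probes taken off, these were 0.06 and -0.46. A further probe that carries the name LOC100048037 shares a transcript search key with the Myl6 probe. It gave raw signals of 11012.3, 11093.7 and 4523.9, with log2 differences of -0.14 and -0.18 for the steps, and was not called either.

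The Myl1 probe gave raw signals of 68.7, 62.8 and 52.9, not above background in any array, so no difference is given for it. The authors' deposited table lists an adult over neonatal ratio of 40.8 for this probe, but the probe was detected in neither of these arrays. Of 10 skeletal muscle markers 3, 4 and 3 were detected in the embryonic, neonatal and adult arrays. The fast troponin gene Tnni2 gave raw signals of 3513.7, 338.1 and 98.8 and was detected in all 3, as was Tnnt3, Ckm and Actn3 were each detected in 2, and the myogenic factors Myog, Myf5 and Myod1 in none.

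The promoters of Myl3 and Myl6 are the other windows of this family with a CArG box, again in capitals. The Myl3 window is chr9:110763428-110763727 on the plus strand with the box at -85, and the Myl6 window is chr10:128492960-128493259 on the minus strand with the box at -50.
Myl3: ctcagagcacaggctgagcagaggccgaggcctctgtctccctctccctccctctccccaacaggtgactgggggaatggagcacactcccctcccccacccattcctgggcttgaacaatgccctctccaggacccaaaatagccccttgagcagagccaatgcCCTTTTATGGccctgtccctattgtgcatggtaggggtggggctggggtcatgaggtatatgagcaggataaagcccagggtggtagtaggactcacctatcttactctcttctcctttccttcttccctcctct
Myl6: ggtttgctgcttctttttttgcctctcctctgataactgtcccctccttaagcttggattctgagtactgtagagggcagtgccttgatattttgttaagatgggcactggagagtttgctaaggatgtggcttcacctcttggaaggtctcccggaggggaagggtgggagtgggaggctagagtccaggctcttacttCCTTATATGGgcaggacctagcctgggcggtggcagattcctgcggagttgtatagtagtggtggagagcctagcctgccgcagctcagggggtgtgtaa
RefSeq gave 12 windows for the 9 genes, and 4 of them (33.3%) held a CArG box, against 1.63% of all 32851 windows in the table. A GATA box, GATA on either strand, was in 7 of the 12 member windows and 57.9% of all. An E-box, CANNTG, was in 8 and in 72.3% of all, and an M-CAT site, CATTCC on either strand, was in 5 and in 14.7% of all. An NKX site, AAGTG on either strand, was in 4 (33.3%) and in 46.4% of all. A MEF2 box was in none and in 3.19% of all. It was searched without mismatch as C or T, TA, 4 letters that are A or T, TA, then A or G. Looser forms of the box were not searched. The genes with a box did not share a pattern over the stages: Myl3 and Myl7 were in the group that was far lower in the adult array, Myl9 was lower in both steps, and Myl6 was not called.

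Mylk, the smooth muscle and non-muscle kinase of the regulatory chain, had 3 probes, and each was low in the embryonic array. Probe 4010600 gave raw signals of 104.3, 1370.5 and 550.9 in the embryonic, neonatal and adult arrays and was not detected in the first. Probe 7000364 gave 122.3, 3174.5 and 996.1, and its embryonic detection p of 0.00998 was just inside the limit. Probe 100360020 gave 298.4, 5951.5 and 2053.7 and was detected in all 3. All 3 probes put the neonatal array above the adult array in raw signal and the embryonic array far below both.

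From embryonic to neonatal, Mylk probe 7000364 was 29.7-fold higher (4.89 ± 0.13) and probe 100360020 was 17.8-fold higher (4.15 ± 0.09). Probe 4010600 was at least 12.6-fold higher, counted from the lowest signal among detected probes of the embryonic array after background correction with an offset of 16. The size depended on the processing: without background correction the differences of probes 7000364 and 4010600 were 4.04 and 3.05 on the log2 scale, the second below that bound. From neonatal to adult the log2 differences were -0.14 ± 0.07, -0.48 ± 0.09 and -0.30 ± 0.06, none of them called. Centred on each array's median, probes 7000364 and 100360020 were at -1.34 and -1.19 in that step, but at -0.56 and -0.41 once the median of all measured probes was taken off. Adult less embryonic was 21.3-fold for probe 7000364, 14.4-fold for probe 100360020 and at least 11.4-fold for probe 4010600. Without background correction these log2 differences were 3.58, 3.52 and 2.91.

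Markers of other cell types moved with the Mylk signal. From embryonic to neonatal 7 of 11 smooth muscle and pericyte markers were higher and 0 lower, and all 9 measured fibroblast markers were higher, with a median difference of 7.07. As 6 of these 9 were not detected in the embryonic array, that median was 6.26 with each such gene at its bound. The summed level of the 12 smooth muscle and pericyte markers was 14.50, 15.28 and 14.93 on the log2 scale in the embryonic, neonatal and adult arrays. Of the 12, Acta2, Tagln, Smtn, Lmod1, Cspg4, Abcc9 and Notch3 were detected in the embryonic array, Myh11, Rgs5, Pdgfrb and Kcnj8 were not, and Cnn1 was in no array. Acta2, Lmod1, Cspg4 and Abcc9 were not called from embryonic to neonatal, with log2 differences of 0.08, -0.87, -0.27 and -0.21. Of the 8 endothelial markers 4, 8 and 7 were detected. Their part in the Mylk differences was not tested. A probe named LOC100047435, described by the file as similar to myosin light chain kinase, did not follow Mylk. It gave raw signals of 129.2, 64.3 and 46.9, was detected in the embryonic array only, and was at least 1.4-fold lower in neonatal.

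Counted over the family, 3 of the 10 measured probes were higher and 2 lower in neonatal than in embryonic. Over all 16967 measured probes 21.9% were higher and 22.4% lower, 44.3% in all, so 5 of 10 lies near the background. From neonatal to adult 0 member probes were higher and 6 of 10 lower. Of all 16411 measured probes 13.9% were higher and 14.4% lower, 28.3% in all. From embryonic to adult 3 member probes were higher and 6 lower, where 24.1% of all probes were higher and 27.7% lower, 51.8% in all. Probes of 1 gene are not separate: every higher call was a Mylk probe, and both Myl9 probes were among the lower calls of each comparison. The 5 calls from embryonic to neonatal were thus the probes of Mylk and Myl9 only. In the neonatal to adult step few probes went as low as the sarcomeric chains: 69 probes of 16411 had a difference at or below that of Myl2, 65 for Myl3, 76 for Myl4 and 86 for Myl7, each count including the probe itself. Centring each array on its median shifted the median of measured probes by -0.69 in that step and by -0.48 from embryonic to adult. It lowered the share of calls that were higher from 49.2% to 14.1% and from 46.5% to 31.5%.

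**Figure D2:**
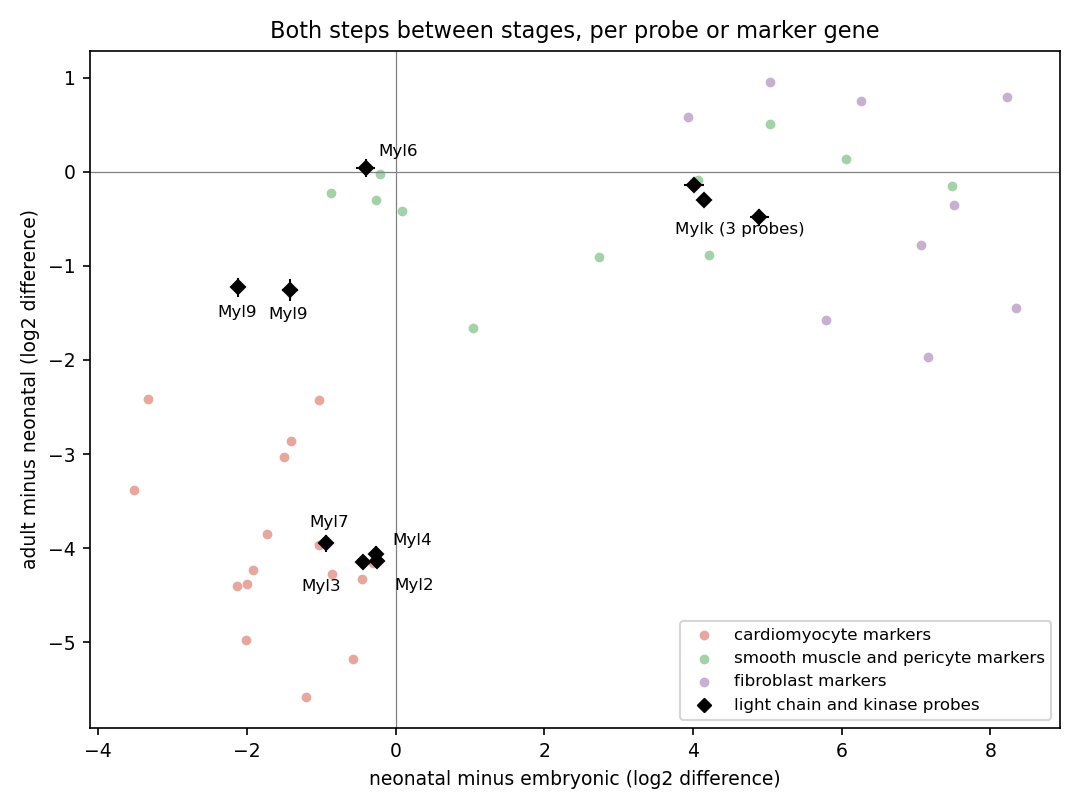
Log2 difference of neonatal less embryonic (horizontal axis) against adult less neonatal (vertical axis), with black diamonds for the 10 measured light chain and kinase probes, error bars for bead standard errors, and coloured points for genes of the cardiomyocyte, smooth muscle and pericyte, and fibroblast marker lists. Myl2, Myl3, Myl4 and Myl7 lie near -4 on the vertical axis, within the range of the cardiomyocyte markers on that axis. On the horizontal axis Myl2 and Myl4 lie to the right of all cardiomyocyte markers, and the Mylk probes detected in both arrays lie at 4.15 and 4.89. Points are fitted differences, so those of genes undetected in 1 array, among them the third Mylk probe, are set against background.

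The sarcomeric chains were set beside the 16 cardiomyocyte markers, which shared their low adult signal. All 16 markers were lower in adult than in neonatal, with a median difference of -4.20, and 12 of 16 were lower in neonatal than in embryonic, with a median of -1.45. From neonatal to adult 9 of the 16 markers had a more negative difference than Myl2, Myl3 or Myl4, and 10 had a more negative one than Myl7, so the light chains lay inside the markers' range. Among the 11 markers detected in both arrays, 8 were more negative than Myl2, Myl3 or Myl4 and 9 more negative than Myl7. From embryonic to neonatal all 16 markers were more negative than Myl2 and Myl4, 15 were more negative than Myl3, and 12 were more negative than Myl7. In the embryonic array these chains read 65.9% (Myl3) to 89.8% (Myl2) of the highest raw signal. Whether steps between such bright signals were compressed was not tested. The part of the cells' make-up in the light chain differences was not tested.

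The atrial and ventricular chains were also set beside other chamber markers. Of 6 atrial markers, 4 were detected in each array and Sln and Bmp10 in none, and 1 was higher and 1 lower from embryonic to neonatal. Of 5 ventricular markers 4, 3 and 1 were detected in the embryonic, neonatal and adult arrays, and all 4 measured were lower in neonatal than in embryonic, with a median difference of -2.50. Myl2, the ventricular regulatory chain, differed by -0.25 in that step. Its probe was far brighter than those of the measured markers, with a raw embryonic signal of 35253.8 against 673.2 (Irx4) to 3302.3 (Lbh). The effect of brightness on this comparison was not tested.

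**Figure D3:**
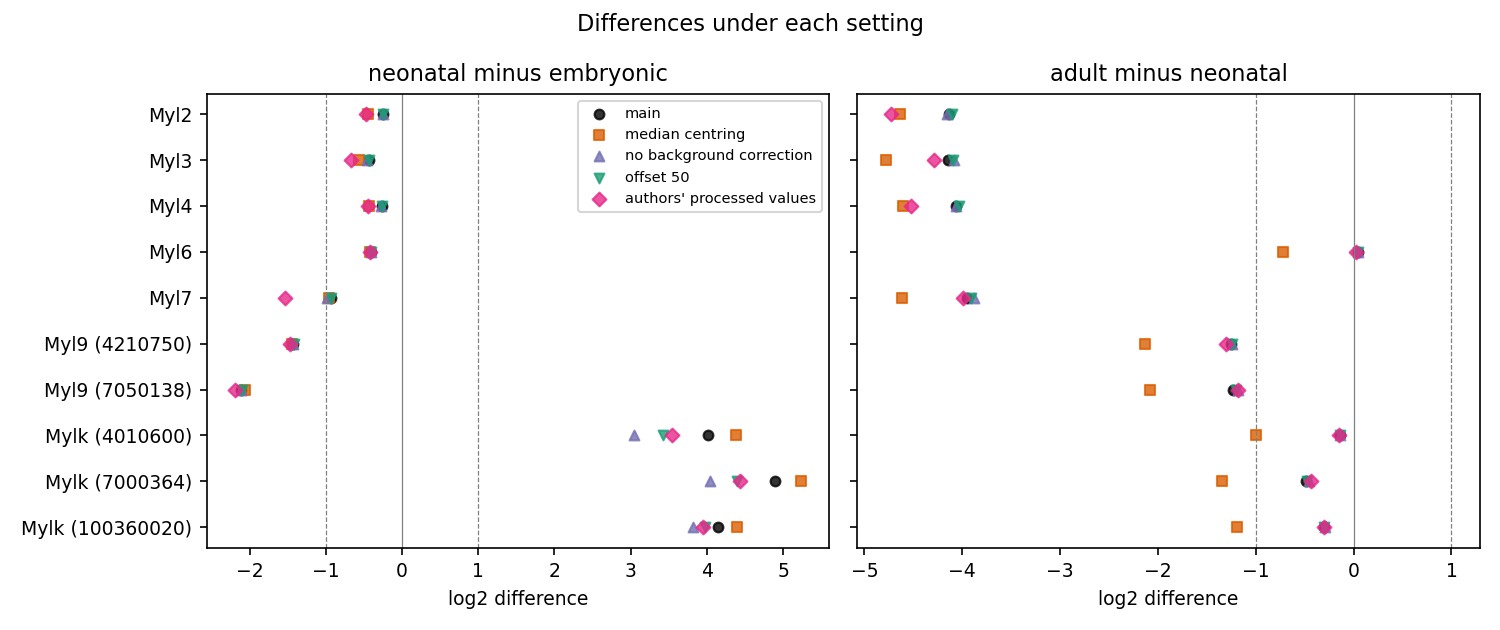
Log2 differences of the light chain and kinase probes under each way of computing the values, 1 panel per comparison, with dashed lines at a log2 difference of 1 and -1, the size that counts as called. The sarcomeric chains stay below -3.8 for adult less neonatal and the Mylk probes stay above 3 for neonatal less embryonic in every setting shown, while Myl7 crosses -1 for neonatal less embryonic with the authors' processed values.

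The size of the adult difference depended on how the arrays were put on a common scale, and for the 4 sarcomeric chains its direction was the same on each scale used. Raw adult signals were 30.8-fold lower than neonatal ones for Myl2, 33.3-fold for Myl3, 30.0-fold for Myl4 and 29.7-fold for Myl7. Myl9 was also lower on each scale, with raw adult signals 5.52-fold (probe 4210750) and 5.22-fold (7050138) lower than neonatal ones. The normalised folds were 2.39 and 2.34, and median centring gave log2 differences of -2.13 and -2.08. For Myl6 the sign depended on the scale: the raw adult signal was 2.11-fold lower than the neonatal one, and median centring gave -0.73. Quantile normalisation gave 0.04 and the authors' processed values gave 0.03. With the median of all measured probes taken off, the median-centred value was 0.06, no longer negative. For Mylk the raw adult signal was 5.28-fold (probe 4010600), 8.14-fold (7000364) and 6.88-fold (100360020) higher than the embryonic one. In the authors' deposited table the adult value was 26.9-fold lower than neonatal for Myl2, 20.1-fold for Myl3, 23.4-fold for Myl4 and 16.4-fold for Myl7. Against embryonic the authors' deposited table gave 37.3-fold, 32.1-fold, 31.9-fold and 47.3-fold lower for the same genes. Leaving the adult array out of the normalisation kept the embryonic to neonatal calls at 3 higher and 2 lower.

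The partners of the light chains were read as 1 value per gene, from its brightest probe. Over all genes 21.9% were higher and 19.1% lower from embryonic to neonatal (40.9% in all), 12.4% and 14.1% from neonatal to adult (26.5%), and 25.1% and 26.6% from embryonic to adult (51.6%). The median differences over all genes were -0.05, -0.12 and -0.18. Among the myosin heavy chains 4 of 7 measured genes were higher and 2 lower from embryonic to neonatal, and 0 were higher and 4 lower from neonatal to adult. In each step 3 of the 7 were detected in 1 array of the pair only. With these genes at their bounds the list medians were 1.06 and -1.07, against 2.06 and -2.79 from the fitted values, and 0.78 and -1.11 as a mean over all probes of a gene. Myh11, the smooth muscle heavy chain, gave raw signals of 91.0, 2117.3 and 1261.8, was not detected in the embryonic array and was at least 19.8-fold higher in the neonatal one. The cardiac heavy chain Myh7 gave 28156.6, 8869.1 and 260.8, with log2 differences of -1.92 ± 0.08 and -4.23 ± 0.12 for the steps. Myh6 gave 3009.2, 1162.3 and 79.7, a difference of -1.73 ± 0.12 in the first step and at least 10.7-fold lower in the second. The heavy chains of the developing skeletal sarcomere, Myh3 and Myh8, were detected in the neonatal array only. They were at least 2.08-fold and 2.46-fold higher there than in the embryonic array and at least 2.1-fold and 2.48-fold lower again in the adult one. The non-muscle heavy chain Myh9 was higher in neonatal than in embryonic by 2.06 ± 0.07.

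Of the other light chains, 3 of 5 were measured, and Myl6b and Myl10 were detected in no array. Myl12b, a non-muscle regulatory chain, gave raw signals of 4192.1, 15677.6 and 6979.4 and was higher in neonatal than in embryonic by 1.75 ± 0.09 on the log2 scale. Its relative Myl12a gave 1406.3, 1910.7 and 439.5 and was lower in adult than in neonatal by just 2-fold (-1.0 ± 0.08). Mylpf, the fast skeletal regulatory chain, gave 970.7, 127.6 and 76.9 and was lower in neonatal than in embryonic by a log2 difference of -3.83 ± 0.20. The neonatal detection p of 0.00998 was just inside the limit, so the size of that difference rests on a signal near background. The probe carries the name LOC676912 and was assigned to Mylpf through its RefSeq accession. A probe named MYLA, which RefSeq lists as a synonym of Myl4, gave raw signals of 179.9, 79.3 and 50.1. It was detected in the embryonic array only and was at least 2.23-fold lower in the neonatal one, whereas the probe named Myl4 was not called in that step.

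Among 9 measured genes for other kinases of the regulatory chain and calmodulin, 1 was higher and 0 lower from embryonic to neonatal, and 2 were higher and 1 lower from neonatal to adult. Dapk1, a death-associated kinase that can phosphorylate regulatory light chains, gave raw signals of 86.6, 220.9 and 428.7, and was not detected in the first. It was at least 1.66-fold higher in neonatal than in embryonic, a bound under the 2-fold limit, and higher in adult than in neonatal by 2.38 ± 0.11 on the log2 scale. Dapk2 was higher in adult than in neonatal by 1.17 ± 0.16, and Cit, citron kinase, which acts in cell division, was at least 2.88-fold lower. Of 7 measured genes of the RhoA pathway, which restrains the phosphatase, 4 were higher and 0 lower from embryonic to neonatal, with a median of 1.13. They were Rhob (1.82 ± 0.07), Arhgef1 (1.37 ± 0.07), Arhgef12 (1.13 ± 0.11) and Arhgap42, for which no fold can be given, since it was not detected in the embryonic array and its neonatal signal lay below the lowest detected one there. With Arhgap42 at a difference of 0 the calls were 3 and the median was 0.95. From neonatal to adult Rhoa was the only call of that list, at 1.18 ± 0.09. That value comes from a probe named LOC433749, the brightest of 3 probes assigned to Rhoa.

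Myosin phosphatase removes the phosphate that the kinases add. Of 8 measured genes 3 were higher and 2 lower from embryonic to neonatal, and 0 were higher and 2 lower from neonatal to adult. Ppp1r12b, a targeting subunit, counted as higher in the first step but was not detected in the embryonic array, and its bound was at least 1.39-fold. Ppp1r14a, the smooth muscle inhibitor CPI-17, gave raw signals of 80.9, 1589.6 and 514.3, was not detected in the embryonic array and was at least 14.7-fold higher in the neonatal one. Ppp1r14c, a related inhibitor, gave 3945.3, 839.8 and 80.9, with a first step of -2.61 ± 0.09 and a second of at least 7.66-fold lower. The catalytic subunit Ppp1cb was lower in neonatal than in embryonic (-1.80 ± 0.07), Mprip, a scaffold that binds the phosphatase, was higher (1.31 ± 0.15), and the targeting subunit Ppp1r12a was lower in adult than in neonatal (-1.05 ± 0.07).

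Of 11 transcription factors that act on light chain genes, 1 was higher and 6 were lower from embryonic to neonatal, with a median of -1.31. From neonatal to adult 0 of 10 were higher and 4 lower, with a median of -0.73. With Nkx2-5 and Hey2, which the adult array did not detect, at their bounds, 3 were lower and the median was -0.64. Srf, the serum response factor that binds the CArG box printed above, gave raw signals of 7839.7, 3780.0 and 1791.8, with a first step of -1.31 ± 0.10 and no call in the second. Myocd, its cardiac and smooth muscle coactivator, gave 4790.1, 1555.6 and 123.0, with steps of -1.96 ± 0.06 and -3.13 ± 0.08. Nkx2-5, a homeodomain factor of the cardiac lineage, gave 1959.8, 201.4 and 58.6, with a first step of -3.95 ± 0.13. Its second step was at least 1.5-fold lower. Irx4, a factor of the ventricle, was at least 9.71-fold lower in neonatal than in embryonic, and Hey2, a factor of the compact ventricular wall, differed by -2.68 ± 0.09 in the first step and was at least 2.94-fold lower in the second, as it was not detected in the adult array. Tbx5, a T-box factor of the heart, differed by -1.68 ± 0.09 and -1.60 ± 0.10. Nr2f2, a factor of the atria that is also made in veins, was higher in neonatal by 1.48 ± 0.10 and is on the atrial marker list. Several heavy chains and factors are themselves markers on the lists above, so their values are not separate from the marker counts.

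From embryonic to adult 2 of 5 measured heavy chains were higher and 2 lower (median -0.50), as were 1 and 1 of 9 kinases and calmodulins (median -0.10). Of 6 phosphatase genes 2 were higher and 3 lower (median -0.89), and of the 3 other light chains 1 was higher and 1 lower (median -0.88). The RhoA pathway had 2 of 6 higher and 0 lower (median 0.86), and the factors had 1 of 11 higher and 7 lower (median -1.14).

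**Figure D4:**
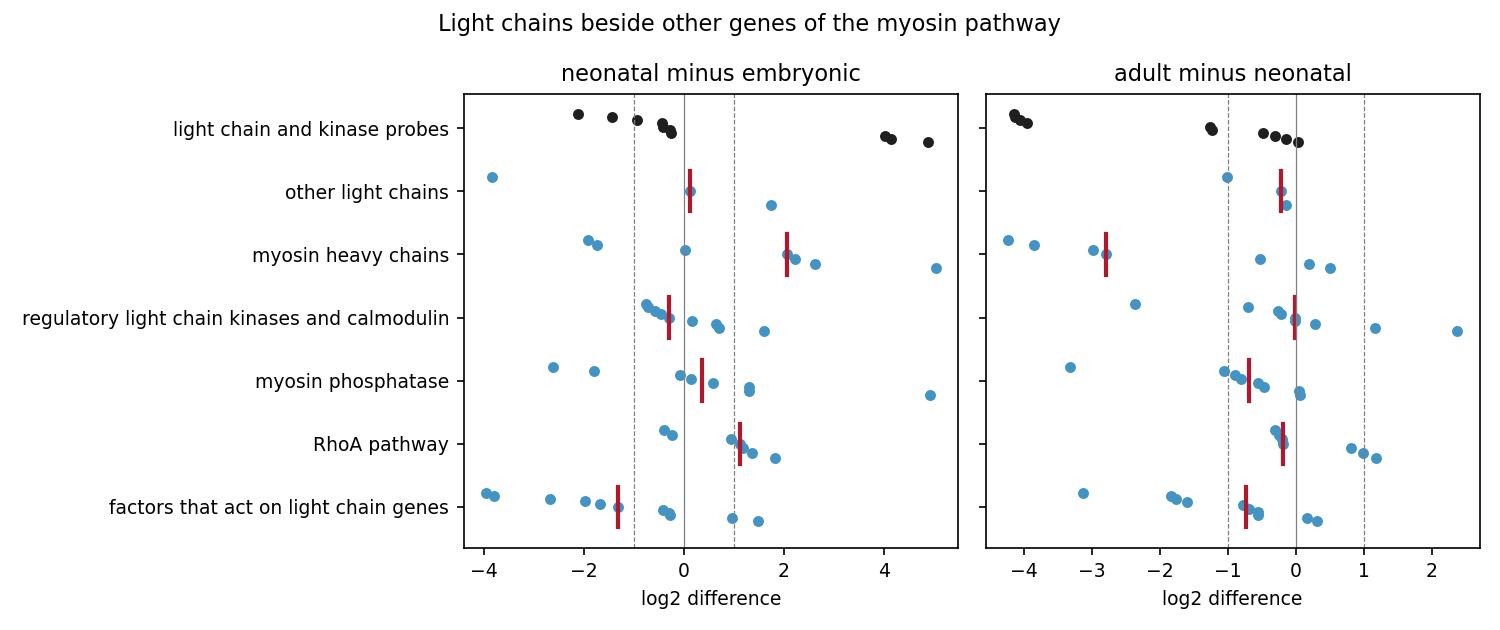
Log2 differences of the partner genes by list (neonatal less embryonic and adult less neonatal), black points for the member probes and blue points for each partner gene measured in the comparison, with red bars for list medians and dashed lines at 1 and -1. Points and medians are fitted values, also for genes undetected in 1 array: the heavy chain medians of 2.06 and -2.79 become 1.06 and -1.07 at the bounds, and the factor medians are -1.31 and -0.73.

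The genes most like each member were sought among 7769 genes detected in all 3 arrays, by the distance between the pair of log2 steps. This is a likeness over 3 arrays only, and a small distance does not by itself link genes. The third gene in order lay at 0.21 to 0.29 for the sarcomeric chains, and at 0.03 for Myl6 and Myl9. Nearest to Myl2 were H2ac13 (distance 0.05), Fabp3 (0.07) and Tnnc1 (0.28), and Fabp3 (0.13) and Tnnc1 (0.19) were also nearest to Myl3, ahead of Mybphl (0.21). Fabp3, a fatty acid binding protein of heart muscle, was likewise nearest to Myl4 (0.11), before H2ac13 (0.12) and Kif23 (0.29). Nearest to Myl7 were Tnni3, cardiac troponin I (0.10), H2ac12 (0.24) and Nusap1 (0.29). H2ac12 and H2ac13 are histone genes with near-identical copies that a probe may not tell apart. Nup98 (0.02), Zcchc4 (0.03) and Zfp277 (0.03) were nearest to Myl6, and Mpp6 (0.0053), Tbrg4 (0.03) and Prelid2 (0.03) to the brighter Myl9 probe. Rftn2 (0.09), Lsp1 (0.11) and Mmp23 (0.12) were nearest to the brightest Mylk probe.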

How the data were processed

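RNA of the 3 preparations called cardiomyocytes, 1 pooled sample each, was labelled with biotin and read on Illumina bead arrays, per the labels' protocols. The authors deposited raw probe intensity on a linear scale, the spread and the count of beads per probe, and a detection score between 0 and 1, given as a fraction per the file headers. They also deposited processed intensity, and ratios with their natural log for adult over embryonic and adult over neonatal. The sources used here do not name the scanner software, the array version or the method behind the processed values.

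Raw intensity was processed with neqc of limma 3.58.1 in R 4.3.3: background estimated from the detection p (1 minus the score), an offset of 16, quantile normalisation and log2. Quantile normalisation hides a shift common to all genes, and the offset shrinks differences of dim probes. Probes were named through RefSeq (GRCm38.p6): 11877 by accession and 22852 by symbol or synonym, while 134 with conflicting names were left out and 11769 kept the file's name. Where a gene was undetected in 1 of a pair of arrays, "at least" folds were counted from the higher of its own signal and the lowest signal among detected probes. Normalisation and calls were tested on simulated arrays that all carried the embryonic signal, with changes put into a small set of probes. That test does not cover arrays that differ in scale or in as many probes as these.

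Members and gene lists were chosen with earlier results of these data known. All member probes are described. Partner genes are named where called, up to 4 a list and comparison by size, and Srf, Nr2f2 and the related probes were added after their values were seen. A partner gene with several probes is read from the brightest over the arrays. A further 25 probes in the processed matrix but not in the raw table were not used. No comparison with Mylk3 was run, as no probe bears its name. Alternatives were median centring, no background correction, an offset of 50, the authors' processed values, and other rules for calls.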

Additional observations from a re-analysis of the deposited data

How the results depend on the processing

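No result changed direction and passed the limit the other way under any alternative tried. Of the member differences recomputed under each alternative, 139 stayed on their side of the limit and 4 moved past it: Myl7 for neonatal less embryonic with the authors' processed values (-1.53), Mylk probes 7000364 and 100360020 for adult less neonatal with median centring (-1.34 and -1.19), and Myl6 for adult less embryonic with median centring (-1.14). The change of Myl7 less that of Myl2 from embryonic to neonatal was -1.06 with the authors' processed values, and that of Myl9 less that of Myl2 was -0.99 with median centring. A limit of 1.5 left 1 member probe lower from embryonic to neonatal. From neonatal to adult it left 4 lower, with neither Myl9 probe among them. Over all probes the calls were 3712 higher and 3808 lower from embryonic to neonatal, 2285 and 2363 from neonatal to adult, and 4025 and 4625 from embryonic to adult. Detection in both arrays gave 1618 higher and 2453 lower from embryonic to neonatal, 1176 lower from neonatal to adult, and 1815 higher and 2549 lower from embryonic to adult. A limit of 1.5 gave 2425 and 2188, then 1229 and 1110, and 2952 lower from embryonic to adult. From neonatal to adult, median centring gave 1055 higher and 6435 lower, and no background correction gave 1487 and 1297. The list medians that crossed the limit were, from embryonic to neonatal, the heavy chains at 0.78 as a mean over probes, and the RhoA pathway at 0.66 as a mean over probes, 0.97 with the authors' processed values, 0.93 with an offset of 50 and 0.81 with no background correction. With median centring they were the phosphatase at -1.26 and the factors at -1.51 from neonatal to adult, and the other light chains at -1.55, the heavy chains at -1.27 and the phosphatase at -1.64 from embryonic to adult. Normalising the embryonic and neonatal arrays without the adult one was chosen after seeing the data and changed no member call. No paired analysis was possible because each stage has 1 array, which also means that no replicate could be left out.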
